A study of Solanum lycopersicum with 12 samples.

Results

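A set of 6 ethylene receptor genes of tomato was followed across ripening in wild-type fruit and in fruit of slnor. In the slnor line the ripening gene NOR, which encodes a NAC-type transcription factor, was mutated by CRISPR. The genes were taken by their identifiers from the table of raw gene counts, which lists 34075 genes. They are ETR1 (Solyc12g011330.4), ETR2 (Solyc07g056580.3), NR, also called ETR3 (Solyc09g075440.4), ETR4 (Solyc06g053710.3), ETR5 (Solyc11g006180.2) and ETR6 (Solyc09g089610.3). All 6 were found, and all 6 passed the filter on low counts, as did 20070 genes in all.

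Ethylene receptors sit in membranes of the endoplasmic reticulum and work as negative regulators. Without ethylene they keep the kinase CTR1 active, which holds the signalling protein EIN2 in check. Once ethylene binds, this brake is released, and EIN2 signals to the EIN3-like (EIL) transcription factors, which switch on ethylene-responsive genes. Tomato is a climacteric fruit that needs ethylene to ripen, and the dominant Never-ripe mutation lies in NR. ETR1, ETR2 and NR belong to receptor subfamily I and ETR4, ETR5 and ETR6 to subfamily II. NR lacks the receiver domain found in the other members. In tomato fruit, transcripts of NR and ETR4 are known to increase at the onset of ripening, and plants with less ETR4 or ETR6 ripen early.

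Fruit RNA was sequenced in 12 libraries, 3 from each of 4 groups. These were wild-type (WT) cultivar Ailsa Craig at breaker, slnor in the same background at breaker, WT at breaker plus 7 days, and slnor at breaker plus 7 days. At breaker, a mature green fruit begins to turn colour. Plants were grown in a controlled greenhouse. The labels give the tissue only as fruit, name no mutant allele or line, and do not say whether replicates are separate plants or pools of fruit. The spread behind each p-value is therefore that of these samples, and it may be technical.

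Library totals ran from 50714230 to 69124795 counts. The 3 fruit markers (E8, PG2a and PSY1) were abundant in all 12 libraries, with a summed level of 14153 CPM or more. CPM is a gene's count relative to the library total (in the usual per-million unit), scaled between libraries with TMM, edgeR's composition scaling. Their sum ran from 32820 to 33940 CPM in WT and from 14153 to 15959 CPM in slnor at breaker, and from 28282 to 28623 and 15338 to 15430 CPM 7 days later. All 3 fruit markers were lower in slnor at both stages, but to unlike degrees. At breaker PG2a was 28.2-fold lower (6672 CPM in WT against 237 CPM in slnor), PSY1 1.83-fold and E8 1.78-fold. After 7 days PG2a was 8.52-fold lower, and PSY1 and E8 were each 1.35-fold lower. The 3 green tissue markers (RBCS-2A, PSBO and Cab-1A) summed to 481 to 516 CPM in WT and 456 to 499 CPM in slnor at breaker, then to 208 to 212 and 231 to 242 CPM. These sums hide members that moved apart: in slnor at breaker RBCS-2A was higher than in WT (log2 fold change 0.36) while PSBO (−0.51) and Cab-1A (−1.63) were lower, and at the later stage RBCS-2A (2.82-fold) and Cab-1A (2.49-fold) were higher while PSBO was lower (log2 fold change −0.12). The 3 epidermis markers (CER6, CD1 and GPAT6) summed to 286 to 301 CPM in WT and 72.3 to 78.4 CPM in slnor at breaker, then to 58.5 to 61.4 and 110 to 117 CPM. CER6 makes up nearly all of this sum (292 CPM in WT and 71.2 CPM in slnor at breaker) and was lower in slnor at breaker, whereas CD1 (0.741 against 2.58 CPM) and GPAT6 (0.377 against 1.08 CPM) were higher there. All 3 were higher in slnor at the later stage. CD1 was at 0 counts in 2 of the 3 later WT libraries. The part of tissue make-up in the receptor results was not tested, and in whole fruit fewer cells of a type and less RNA per cell cannot be told apart. The transcript of NOR itself was present in every library, at 967 ± 11.5 CPM in WT and 821 ± 64.9 CPM in slnor at breaker (SD, n = 3), and at 469 ± 10.7 and 548 ± 31.1 CPM 7 days later. Since a small mutation can leave transcript abundance as it was, the genotype labels cannot be checked this way.

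NR and ETR4 made up nearly all of the receptor transcript pool, taken as the sum of these 6 genes, in every library. ETR7, a further receptor gene, is not in this pool. It stood at 25.1 FPKM in WT and 31.9 FPKM in slnor at breaker, then at 26.4 and 31.4 FPKM. That is above ETR1, ETR2, ETR5 and ETR6 in every group. Genes were compared with one another in FPKM, which divides the count by gene length and library total, because NR is longer (4287 bases in the authors' values) than the other members (2786 to 3191 bases). In WT at breaker, NR stood at 302 ± 4.64 FPKM and ETR4 at 280 ± 8.47 FPKM. ETR1 followed at 14.6 ± 0.186 FPKM, ETR6 at 12.9 ± 0.613, ETR2 at 7.41 ± 0.379 and ETR5 at 3.40 ± 0.248 FPKM. Together NR and ETR4 held 93.8% ± 0.0503 of the summed FPKM of the 6 genes there, 91.5% ± 0.327 in slnor at breaker, 93.1% ± 0.103 in WT and 91.3% ± 0.249 in slnor 7 days later. Among all 34075 genes ranked by FPKM within a library, NR lay between places 277 and 606 and ETR4 between places 306 and 512. ETR5, the scarcest, lay between places 11706 and 13876.

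The order of NR and ETR4 was opposite in the genotypes. NR was above ETR4 in all 6 WT libraries and below it in all 6 slnor libraries. The ratio of NR to ETR4, both in FPKM, was 1.06 to 1.09 in the WT breaker libraries and 0.628 to 0.715 in the slnor breaker libraries. After 7 days it was 1.3 to 1.32 in WT and 0.920 to 0.980 in slnor. Such a ratio is taken within 1 library and does not depend on how libraries are scaled to each other, but it does depend on the gene lengths. In CPM, which is not per length, NR was the higher of the 2 in slnor after 7 days (840 against 663 CPM) and the lower at breaker (746 against 816 CPM). As a share of the pool, NR held 48.7% ± 0.325 in WT and 37.1% ± 1.64 in slnor at breaker, then 52.8% ± 0.0768 and 44.3% ± 0.858. ETR4 held 45.1% ± 0.371 and 54.4% ± 1.39 at breaker, then 40.3% ± 0.154 and 47.0% ± 0.654.

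**Figure D1:**
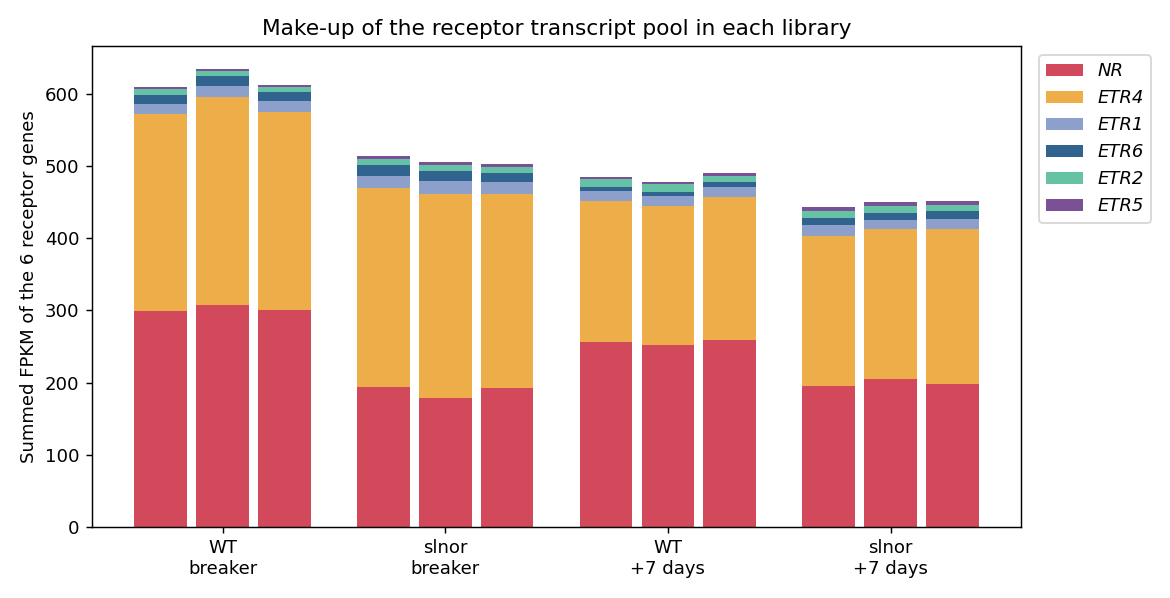
Summed FPKM of the 6 receptor genes (y axis) in each of the 12 libraries (bars, 3 per group), stacked by gene. The sum was 620 ± 13.7 FPKM in WT and 508 ± 5.86 in slnor at breaker, then 485 ± 6.23 and 449 ± 4.79. NR and ETR4 fill nearly the whole bar in every library.

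The summed level of the 6 genes in CPM, with TMM scaling, was 2395 ± 48.2 in WT and 1675 ± 28.1 in slnor at breaker, then 1913 ± 27.8 and 1612 ± 17.2. It was highest in WT at breaker on both scales. The next place differed between the scales. The sum in slnor at breaker was above that of WT 7 days later in FPKM (508 against 485) and below it in CPM (1675 against 1913).

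Below NR and ETR4, the order of the scarce receptors shifted with stage. Among the 6 genes, with ETR7 left aside, ETR1 came next after NR and ETR4 in all 4 groups, and ETR5 was last. ETR6 stood above ETR2 at breaker, at 12.9 against 7.41 FPKM in WT and 13.9 against 8.71 FPKM in slnor. After 7 days ETR2 was above ETR6 in WT, at 9.72 ± 0.838 against 5.59 ± 0.310 FPKM. In slnor the values of ETR2 (9.78 ± 0.753 FPKM) and ETR6 (9.58 ± 0.791 FPKM) overlapped between libraries at that stage, and this was the only pair of neighbours in the order whose libraries overlapped in any group. Depth was ample for NR and ETR4, with at least 34440 counts in every library. For ETR5 the lowest library held 488 counts, which alone gives a counting error of 4.53%.

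The first comparison asked how the receptors differed between slnor and WT at breaker. NR was the one with a large difference. It stood at 1339, 1373 and 1341 CPM in WT and at 767, 699 and 772 CPM in slnor. All 3 slnor libraries lay far below all 3 WT libraries, and NR was 1.81-fold lower in slnor (log2 fold change −0.86, SE 0.035, edgeR adjusted p = 2.37e-12). The size of this change exceeded that of 81.7% of the genes tested.

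ETR4 stood at 914, 962 and 916 CPM in WT and at 814, 829 and 804 CPM in slnor at breaker. The groups did not overlap, but the difference was small, a log2 fold change of −0.19 (SE 0.030, edgeR adjusted p = 4.13e-05). It rested on the scaling. When libraries were scaled by their totals alone, the log2 fold change of ETR4 was −0.015 (adjusted p = 0.701). Under that setting the median over all genes was 0.20, against 0.02 with TMM. NR remained lower under it, at −0.68 (adjusted p = 2.00e-11).

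The other 4 receptors did not pass the test at breaker. ETR1, a subfamily I receptor, stood at 42.0, 43.0 and 42.5 CPM in WT and 44.9, 47.1 and 40.3 CPM in slnor, and ETR2, of the same subfamily, at 23.8, 21.5 and 22.1 against 25.4, 22.8 and 22.1 CPM. The 95% intervals of their log2 fold changes ran from −0.065 to 0.17 for ETR1 and from −0.10 to 0.22 for ETR2. ETR5 stood at 10.1, 11.1 and 11.6 CPM in WT and 10.1, 9.51 and 11 CPM in slnor, with an interval from −0.28 to 0.086. For ETR6, at 36.0, 39.4 and 36.8 against 36.0, 35.8 and 35.5 CPM, the interval ran from −0.20 to 0.069. With library totals alone, ETR1 (0.23, adjusted p = 0.00266) and ETR2 (0.24, adjusted p = 0.0172) passed as higher in slnor, and the values of ETR5 and ETR6 turned to 0.078 and 0.11 without passing. In all, 2 of the 6 receptors were lower and none higher, whereas 49.3% of all genes tested were called in either direction, 23.7% as lower and 25.6% as higher. The median log2 fold change was −0.08 over the 6 receptors.

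**Figure D2:**
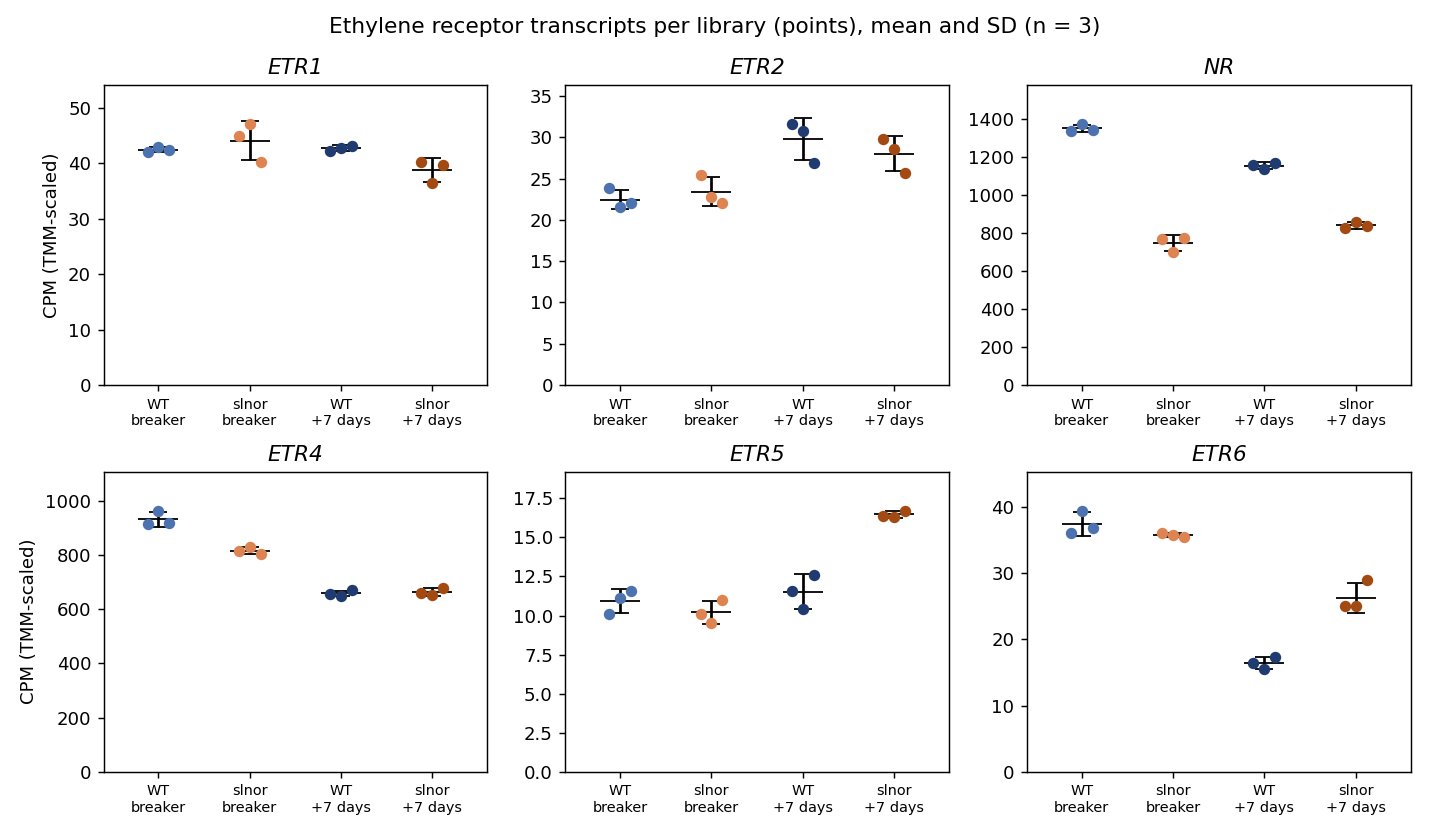
CPM scaled with TMM (y axis, from 0, a separate scale for each gene) of the 6 receptor genes in each library (points), with the group mean and SD (n = 3). NR is lower in slnor at both stages, and ETR5 and ETR6 are higher in slnor 7 days after breaker, at 16.5 against 11.6 CPM and 26.3 against 16.4 CPM.

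The second comparison set slnor against WT 7 days after breaker. NR was still lower in slnor, while the scarce subfamily II receptors ETR5 and ETR6 were higher. NR stood at 1159, 1136 and 1170 CPM in WT and at 824, 858 and 838 CPM in slnor. Again no slnor library reached the lowest WT library, and NR was 1.38-fold lower (log2 fold change −0.46, SE 0.035, edgeR adjusted p = 6.43e-09).

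ETR6 stood at 16.4, 15.5 and 17.4 CPM in WT and at 25.0, 25.0 and 28.9 CPM in slnor. Every slnor library was above every WT library, a 1.60-fold difference (log2 fold change 0.68, SE 0.066, adjusted p = 1.38e-07). ETR5 stood at 11.6, 10.4 and 12.6 CPM in WT and at 16.4, 16.3 and 16.7 CPM in slnor. It was 1.43-fold higher (log2 fold change 0.51, SE 0.084, adjusted p = 6.26e-05), also without overlap. The change of ETR6 was larger in size than that of 71.9% of the genes tested and the change of ETR5 than that of 64.0%.

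ETR4, of the same subfamily, stood at 656, 648 and 669 CPM in WT and at 658, 652 and 678 CPM in slnor 7 days after breaker. The groups overlapped, and the 95% interval of its log2 fold change ran from −0.051 to 0.075. With library totals alone it passed as higher, at 0.11 (adjusted p = 0.00474). ETR2 stood at 31.6, 30.8 and 26.9 against 29.8, 28.6 and 25.7 CPM, an interval from −0.25 to 0.074. ETR1 stood at 42.2, 42.8 and 43.2 CPM in WT and 40.2, 36.4 and 39.8 CPM in slnor. It passed narrowly as lower (log2 fold change −0.14, SE 0.056, adjusted p = 0.0424), and 12 of the 18 alternative fits did not call it. Among these were the fits without WT replicate 2 or 3 at breaker, without slnor replicate 2 or 3 of this stage, and without any 1 of the WT libraries of this stage, with adjusted p up to 0.192. In all, 2 receptors were higher and 2 lower, where 55.8% of all genes tested were called. Of all genes, 28.5% were higher and 27.4% lower.

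**Figure D3:**
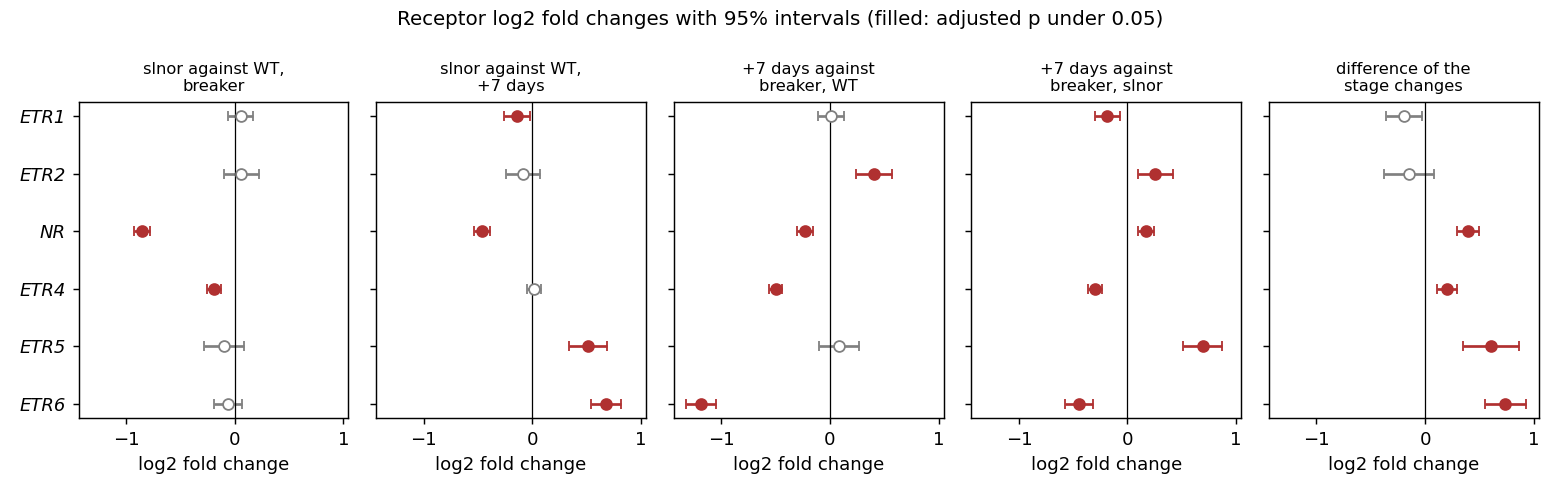
Log2 fold change (x axis) of each receptor gene (y axis) in 5 comparisons, with 95% intervals from edgeR. Filled red points passed at an adjusted p under 0.05. NR lies left of 0 in both genotype comparisons, at −0.86 and −0.46, and on opposite sides of 0 in the stage comparisons of WT (−0.23) and slnor (0.17).

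The third comparison followed WT fruit over the 7 days after breaker, from the same library values. ETR6 fell furthest of the receptors, 2.28-fold from 37.4 ± 1.74 to 16.4 ± 0.928 CPM (log2 fold change −1.19, SE 0.065, edgeR adjusted p = 5.89e-11). ETR4 fell 1.42-fold, from 931 ± 27.4 to 658 ± 10.5 CPM (adjusted p = 1.62e-10), and NR fell 1.17-fold, from 1351 ± 19.4 to 1155 ± 17.3 CPM (adjusted p = 2.26e-05). ETR2 rose 1.32-fold, from 22.5 ± 1.18 to 29.8 ± 2.54 CPM (adjusted p = 1.96e-04). The libraries of the 2 stages did not overlap for any of these 4 genes, and how common that is among all genes tested was not counted. ETR1 was level at 42.5 ± 0.472 and 42.7 ± 0.511 CPM, with an interval of its log2 fold change from −0.11 to 0.13, and its sign turned in 4 of the 6 other settings. ETR5 stood at 10.9 ± 0.772 and 11.6 ± 1.09 CPM, with an interval from −0.10 to 0.27. Thus 3 of the 6 fell and 1 rose, where 65.3% of all genes tested were called, 32.1% as lower and 33.2% as higher.

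In slnor over the same 7 days, every receptor passed the test, 3 upward and 3 downward, where 52.2% of all genes tested were called, 26.2% upward and 26% downward. ETR5 rose 1.61-fold, from 10.2 ± 0.755 to 16.5 ± 0.220 CPM (log2 fold change 0.69, SE 0.084, edgeR adjusted p = 2.77e-06). ETR6 fell 1.36-fold, from 35.8 ± 0.258 to 26.3 ± 2.24 CPM (adjusted p = 1.40e-05), and ETR4 fell 1.23-fold, from 816 ± 12.6 to 663 ± 13.4 CPM (adjusted p = 2.37e-07). NR, which fell in WT, rose 1.13-fold in slnor, from 746 ± 40.5 to 840 ± 17.3 CPM (log2 fold change 0.17, SE 0.035, adjusted p = 5.52e-04). With library totals alone this rise was 0.08 (adjusted p = 0.0469).

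The calls of ETR1 and ETR2 in slnor depended on single libraries or on the scaling. ETR2 rose by 0.26 on the log2 scale (adjusted p = 0.00919), from 23.4 ± 1.77 to 28 ± 2.11 CPM. It did not pass with library totals alone (0.17, adjusted p = 0.0787) or without slnor replicate 1 of the later stage (0.21, adjusted p = 0.053). ETR1 fell by 0.18 (adjusted p = 0.0103), from 44.1 ± 3.48 to 38.8 ± 2.05 CPM. It did not pass without slnor replicate 2 at breaker (−0.13, adjusted p = 0.0572) or without slnor replicate 2 of the later stage (−0.14, adjusted p = 0.0618).

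The stage changes of 4 receptors differed between the genotypes in a direct test of that difference, all with the slnor value above the WT value. This test is the interaction of genotype and stage, and it called 42.2% of all genes, 21.8% in this direction and 20.4% in the other. The difference was 0.74 for ETR6 (SE 0.091, edgeR adjusted p = 4.58e-06), whose stage changes were −1.19 in WT and −0.45 in slnor on the log2 scale. For ETR5 it was 0.61 (SE 0.121, adjusted p = 6.11e-04), from stage changes of 0.08 and 0.69. For NR it was 0.40 (SE 0.049, adjusted p = 5.47e-06) and for ETR4 0.20 (SE 0.042, adjusted p = 9.01e-04). ETR1 (−0.19, adjusted p = 0.0598) and ETR2 (−0.15, adjusted p = 0.304) did not pass. ETR1 passed with library totals alone (−0.27, adjusted p = 0.0126) and without slnor replicate 3 at breaker (−0.25, adjusted p = 0.00806). Because every library enters 2 of the 4 pairwise comparisons, these comparisons are not independent of each other.

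Across the 4 groups, ETR6 had the widest range of the 6 receptors, 2.28-fold between the highest and lowest group means of log2 CPM, and ETR1 the narrowest, 1.14-fold. NR ranged 1.81-fold, ETR5 1.62-fold, ETR4 1.42-fold and ETR2 1.32-fold. Within groups, the SD of log2 CPM was lowest for the abundant genes, 0.030 for ETR4 and 0.045 for NR, and lay between 0.071 and 0.106 for the other 4. The group ranges of NR, ETR4 and ETR6 were 19.0, 16.6 and 14.8 times that SD, against 2.60 times for ETR1.

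The wider pathway was described with a list of 18 further genes, of which 17 are in the count table and were tested (CTR2 is not analysed here). At breaker 7 of the 17 were higher in slnor, 6 lower and 4 not called, where 25.6% of all genes tested were higher and 23.7% lower. In the ethylene-making step, ACS2, an ACC synthase gene, fell from 867 ± 15 CPM in WT to 227 ± 20.2 in slnor (log2 fold change −1.93), and ACO1, an ACC oxidase gene, from 4582 ± 148 to 3622 ± 88.5 CPM (−0.34). ACS4, a second fruit ACC synthase gene, was slightly higher, at 170 ± 4.18 against 157 ± 3.59 CPM (0.11, edgeR adjusted p = 0.0129). The ethylene-responsive fruit genes E4 and E8 fell with log2 fold changes of −1.15 and −0.83, the latter close in size to that of NR.

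The list holds 7 signalling genes that act below the CTR kinases, namely EIN2 and the EIL and EBF genes. Of these, 5 were higher in slnor at breaker, a call made for 25.6% of all genes tested. A count over this subset was not planned, as only the whole list was, so it is a description and cannot show enrichment. The target genes E4 and E8, which lie further down, were lower, and the whole list had 7 higher and 6 lower. The transcript of EIN2, which encodes the central signalling protein, was higher in slnor by 0.33 on the log2 scale. The transcription factor genes EIL1, EIL3 and EIL4 were higher by 0.31, 0.32 and 0.47. EBF2, an F-box gene whose product targets EIL proteins for breakdown, was higher by 0.40. EIL2 (−0.12, adjusted p = 0.0524) and EBF1 (−0.045, adjusted p = 0.22) did not pass. EIL2 was called lower with RLE size factors (−0.12, adjusted p = 0.0384) and with DESeq2 (adjusted p = 0.0262), and EBF1 was called higher with library totals alone (0.13). Of the CTR kinase genes, which act directly below the receptors, CTR1 fell by 0.34 and CTR4 by 0.24, the latter not with library totals alone (−0.067, adjusted p = 0.494). CTR3 did not pass (−0.038), and it was called higher with library totals alone (0.14). ETR7, a further receptor gene outside the 6, rose by 0.17, from 78.8 ± 1.69 to 88.7 ± 2.73 CPM. GR, the Green-ripe gene whose product acts with the receptors, was near the limit of detection (19 to 55 counts per library) and did not pass (−0.50, SE 0.454).

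After 7 days, 8 of the 17 were higher in slnor, 8 lower and 1 (GR, at 0.77 with SE 0.457) not called, where 28.5% of all genes tested were higher and 27.4% lower. ACS2 (−1.15), ACS4 (−0.72), ACO1 (−0.22), E4 (−0.60) and E8 (−0.44) were lower. EBF2 was higher by 0.82, EIL4 by 0.44, EIL1 by 0.33, EIL2 by 0.33, EIN2 by 0.17, CTR1 by 0.155, ETR7 by 0.15 and EBF1 by 0.10. CTR4 was lower (−0.30), as were CTR3 (−0.20) and EIL3 (−0.12), the last pair not with library totals alone (−0.10 and −0.019).

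Over the 7 days, 4 of the 17 pathway genes rose and 7 fell in WT, and 4 rose and 8 fell in slnor. Of all genes tested, 33.2% rose and 32.1% fell in WT, and 26.2% rose and 26% fell in slnor. ACS4 rose in both, by 1.74 in WT and 0.91 in slnor, while ACO1 fell in both, by 1.34 and 1.22. ACS2 rose in slnor, by 0.74, and its change in WT was −0.042 (adjusted p = 0.461). The difference between these changes passed its own test (0.78, edgeR adjusted p = 6.98e-08). EBF2 fell by 0.87 and 0.45, EBF1 by 0.59 and 0.45, CTR1 by 0.66 and 0.17, E4 by 1.10 and 0.55, and E8 by 0.68 and 0.29. CTR3 rose in WT (0.23) and did not pass in slnor (0.071), EIL3 rose in WT (0.29) and fell in slnor (−0.14), and EIL4 rose in both (0.14 and 0.11, the latter only 0.024 with library totals alone). EIL2 fell in WT (−0.18) and rose in slnor (0.26), and EIN2 fell in slnor (−0.19). ETR7 did not pass in either (0.087 and 0.068), and neither did CTR4 (0.031 and −0.029), EIL1 (−0.036 and −0.014) or GR (−0.73 and 0.54). EIL1 was called lower in slnor with library totals alone (−0.10). The genotype by stage test called 8 of the 17 upward and 3 downward, where it called 21.8% and 20.4% of all genes. With library totals alone it called 6 upward and 4 downward, since ACO1 (0.047) and EBF1 (0.07) lost their calls and CTR3 (−0.24) gained one.

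**Figure D4:**
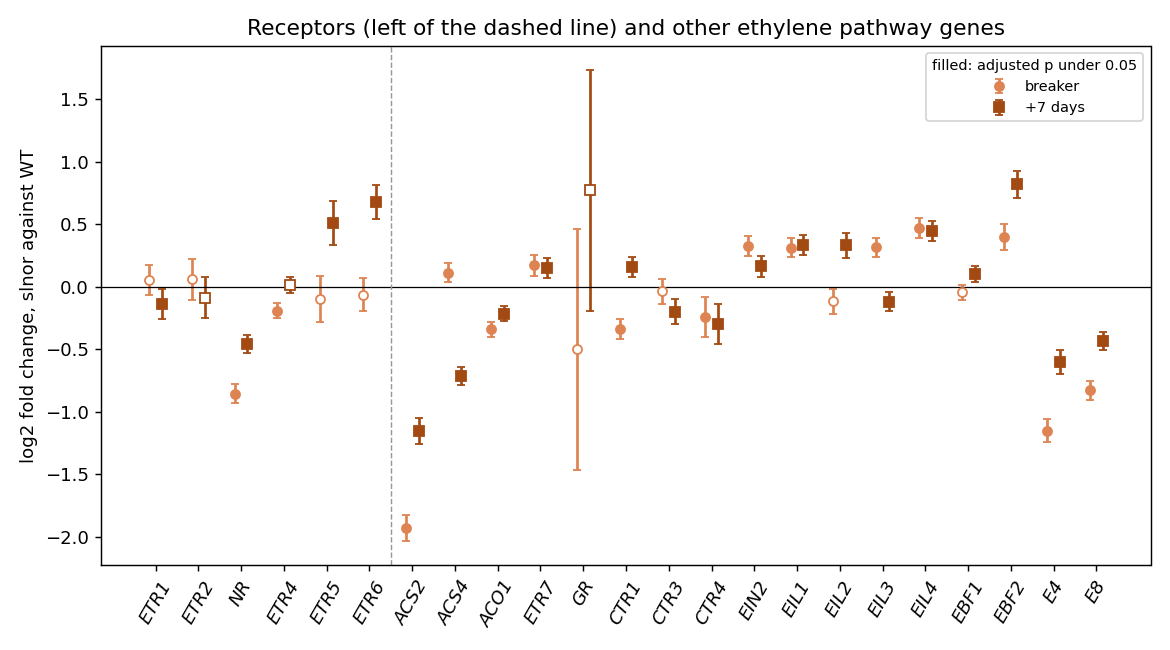
Log2 fold change of slnor against WT (y axis) at breaker (circles) and 7 days later (squares) for the 6 receptors, left of the dashed line, and 17 other ethylene pathway genes, with 95% intervals. Filled symbols passed at an adjusted p under 0.05. NR lies on the negative side at both stages, as do ACS2, ACO1, CTR3 (open at breaker), CTR4, E4 and E8. EBF2, ETR7, EIN2, EIL1 and EIL4 lie above 0 at both stages. ETR5 and ETR6 lie slightly below 0 at breaker (open) and above 0 at the later stage.

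Genes with the pattern most like each receptor were found by the root mean square difference of log2 CPM, centred on each gene's mean, over the 12 libraries. Within the pathway list the nearest gene was CTR1 to ETR4 (0.075), EIL3 to ETR1 (0.133), CTR3 to ETR2 (0.142), EBF2 to ETR6 (0.199), EIL2 to ETR5 (0.207) and E8 to NR (0.231). For each of the 6 the nearest other receptor lay farther off than this, the closest pair being ETR1 and ETR4 at 0.192. There are fewer other receptors than pathway genes to choose from, which by itself makes a near one less likely. These distances therefore cannot show whether receptors resemble pathway genes more than each other. Over all genes tested, Solyc08g083250.4 and Solyc11g065110.2 were nearest to NR (0.047 and 0.055), against a median of 0.495 over all genes. That median was 0.351 for ETR1, 0.379 for ETR2, 0.414 for ETR4, 0.433 for ETR5 and 0.605 for ETR6. Solyc01g091640.3 and Solyc10g006050.3 were nearest to ETR4 (0.047 and 0.049), and Solyc01g106000.4 and Solyc06g068480.3 to ETR6 (0.072 for both). Solyc07g006830.4 and Solyc04g008810.3 were nearest to ETR1 (0.047 and 0.048), Solyc10g078480.2 and Solyc02g093060.3 to ETR2 (0.066 and 0.075), and Solyc01g005250.4 and Solyc12g006370.3 to ETR5 (0.073 and 0.088). The files do not name these genes.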

How the data were processed

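Raw counts, 1 column per library, were deposited as whole numbers, per the file headers. The authors also deposited 1 table per library that names no unit, read here as FPKM (counts divided by gene length and library total), since the gene length implied by count and value was the same in all libraries (within 1%) for 100% of 7290 genes (minimum count 1000). The submitters' processing notes list HISAT, UMI-tools, StringTie and edgeR. Versions, roles, genome build, annotation, strand setting and whether a count is a read or a UMI-collapsed molecule were not given in the sources used here, so reads from overlapping antisense genes cannot be told apart. No column of per-sample values was left out.

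Tests used edgeR 4.0.16 (R 4.3.3) quasi-likelihood fits to the deposited counts of all 12 libraries together, after filterByExpr and TMM scaling. Benjamini-Hochberg adjustment covered all 20070 genes tested, with calls at an adjusted p under 0.05. SEs were derived from the F statistic. The fit was tested on simulated data, where it missed part of the changed genes, mainly those with low counts. It fell short of the recovery first required over all changed genes, and that requirement was then lowered. A strict requirement was kept for genes with counts in the range of the receptors. Recovery is not given here by size of change, so none is claimed for changes of the size seen in the receptors. The fit itself was not altered. FPKM is scaled by library totals and served only to compare genes within a group and for sums and shares. Alternatives were DESeq2 1.42.0, RLE factors, library totals, no filter, 2-group fits, the replicate number as a block, and leaving out each library. No replicate pair agreed within sampling noise (chi-square over its degrees of freedom 4.66 to 14.2).

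All 6 receptors and the pathway list are named whatever their result, with the 2 genes of nearest pattern. The members and lists were chosen with earlier results of these data known. Names come from published nomenclature. Those of the 6 receptors, and of 14 of the 18 pathway genes, are on the same chromosome in RefSeq SLM_r2.1. The names CTR2, EBF2, E8 and GR could not be matched this way. Of the tissue markers, the names PG2a and PSY1 had no entry there. PSBO, Cab-1A and CER6 were on the same chromosome but lay apart in relative gene order along it. Their differences were 0.441, 0.364 and 0.171 of the chromosome's gene order, against at most 0.0452 for the receptors.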

Additional observations from a re-analysis of the deposited data

Results flagged for a closer look

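The stage change of 4 receptors differed between slnor and WT in the test of the difference itself, with the slnor value higher in each. That test called 42.2% of all genes tested, 21.8% in this direction. For ETR6 the difference was 0.741 on the log2 scale, because the gene fell less in slnor than in WT. For ETR5 it was 0.608, with a rise that passed in slnor and a WT value of 0.083 that did not pass. For NR it was 0.397, with a fall in WT and a rise in slnor. For ETR4 it was 0.202, with a fall in both genotypes. The calls of all 4 held under every alternative run, and without any 1 library the differences lay at 0.676 to 0.783, 0.538 to 0.676, 0.368 to 0.433 and 0.177 to 0.230. Groups of 3 are too small for a search for outlying samples.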

How the results depend on the processing

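The calls of NR, ETR5 and ETR6 kept their direction and side of the threshold under all alternatives in every comparison in which they passed. Scaling mattered most for small changes. With library totals alone, the breaker comparison called 8447 genes higher in slnor and 2836 lower, against 5142 and 4758 with TMM. Higher calls were 74.9% of the genes called with library totals alone, against 51.9% with TMM. With library totals alone, these shares of the called genes were 64.3% against 51% 7 days later and 36.7% against 50.2% for the stage change in slnor. At breaker this scaling called 2 receptors higher and 1 lower, in place of none and 2, and gave ETR5 0.078 and ETR6 0.112. At the later stage ETR2 turned to 0.013 under it, and the interaction called 1 receptor lower, in place of none. The ETR1 stage change in WT turned sign with RLE factors (−0.007), library totals (−0.006), DESeq2 (−0.007) and 2 groups alone (−0.011). Receptors lower in slnor at the later stage numbered 1 in place of 2 with RLE factors, library totals, no filter, DESeq2 or the replicate block. With CPM in place of FPKM, NR held 56.4%, 44.5%, 60.4% and 52.1% of the pool in WT and slnor at breaker and WT and slnor later, and ETR4 38.9%, 48.7%, 34.4% and 41.1%, since NR is the longer gene. Leaving out 1 library gave −0.012 to 0.115 for ETR1 and −0.016 to 0.103 for ETR2 at breaker, −0.009 to 0.017 for the ETR1 stage change in WT, 1 to 2 receptors lower at the later stage and 0 to 1 in the interaction. Same-numbered replicates did not deviate together (r from −0.03 to 0.039 over 18 pairs), so the numbers do not pair the samples, and the block changed 1 of 30 receptor results, the ETR1 call at the later stage (adjusted p = 0.0575). For all genes together, no alternative moved the number called in a comparison by over 1.5 times. Depth limits ETR5 most.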

Other observations

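The scarce receptors and the subfamilies were summed after the values had been seen, as a description with no test. ETR1, ETR2, ETR5 and ETR6 together stood at 38.2 ± 0.590 FPKM in WT and 43.3 ± 1.95 FPKM in slnor at breaker, and at 33.4 ± 0.396 and 38.9 ± 0.885 FPKM 7 days later (SD, n = 3). On this scale, which uses library totals alone, all slnor libraries were above all WT libraries of the same stage. In CPM with TMM scaling, a scale added after the values had been seen, the separation at breaker was lost, with 112 to 115 CPM in the WT libraries and 109 to 116 CPM in the slnor libraries. After 7 days the slnor libraries remained above, at 106 to 111 against 99.5 to 102 CPM. Subfamily I (ETR1, ETR2 and NR) held 52.3% ± 0.422 of the pool in WT and 42.1% ± 1.39 in slnor at breaker, then 57.8% ± 0.218 and 49.7% ± 0.795. Only NR had a lower share in slnor, at 48.7% against 37.1% at breaker and 52.8% against 44.3% later. The shares of ETR1 (2.35% against 3.36%) and ETR2 (1.20% against 1.72%) were higher in slnor at breaker. They stood at 2.99% against 3.14% and 2.01% against 2.18% later.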
